A study of Mus musculus with 5 samples.

Results

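The cells described here are the 5% of mammary tumour epithelial cells with the highest joint level of Saa1, Saa2, Cyp24a1, Clca3a2 and Ceacam10 in each of 5 single-cell RNA libraries from PyMT mice. A cell counted as epithelial when Krt8, Krt18 and Epcam together reached at least 15 UMIs (unique molecular identifiers, each standing for 1 captured transcript) per 10000 UMIs of the cell. Each epithelial cell then received a score, the mean of the natural log of 1 plus the UMIs per 10000 of the 5 genes, and the cells above the 95th percentile of their own library were taken. This gave 550 cells of 10959 epithelial cells, out of 15958 cells in all. They were 70 of 1396 epithelial cells in the first fresh 10x library, 72 of 1430 in the second, 149 of 2971 in the stored 10x library, 127 of 2528 in the first BD Rhapsody library (BD 1) and 132 of 2634 in the second (BD 2). The score was dominated by the 2 serum amyloid genes, and Cyp24a1 was not detected in most of these cells. The cells are therefore called Saa1/Saa2-high cells below.

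PyMT mice carry the polyoma virus middle T antigen and develop mammary tumours. The tumours were digested and enriched for viable cells, and the study set droplet capture (10x Chromium 3' v2) beside microwell capture (BD Rhapsody whole transcriptome) and fresh beside stored material. The fresh 10x group had 2 libraries, the stored 10x group 1 library from a digest kept overnight at 4 ºC (24 h in its title), with viability lower by at least 20%, and the BD Rhapsody group 2 libraries. Both BD Rhapsody titles say fresh, but the files of BD 2 are named for 24 h, so its storage state is uncertain, and counts of called genes are also given without it. The labels name no strain, age, animal or number of tumours per library, so p-values measure only the spread between these libraries, which may be technical.

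Serum amyloid A proteins are small apolipoproteins of high-density lipoprotein that liver and epithelia secrete in the acute phase response, and the mammary gland releases them around inflammation and involution. Their genes are classical targets of C/EBP, NF-kB and STAT3 factors, which act downstream of interleukin-1 and interleukin-6 type cytokines. Cyp24a1 encodes the mitochondrial hydroxylase that inactivates vitamin D hormone, and its own transcription is induced by the vitamin D receptor. Clca3a2 belongs to the CLCA family of secreted regulators of calcium-activated chloride channels, and Ceacam10 to the carcinoembryonic antigen family.

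The serum amyloid genes lie side by side on mouse chromosome 7 in GRCm38, the assembly that mm10 names (mm10 is the build in the submitters' processing notes). Saa3 spans chr7:46711998-46719615, Saa1 chr7:46740497-46743181 and Saa2 chr7:46751833-46754313. Ceacam10 spans chr7:24777167-24784656 and Cyp24a1 chr2:170482957-170497145. The 250 bases before the start given in the RefSeq promoter table are shown for the 2 genes that set the score and for Saa3, the third inducible serum amyloid gene (GRCm38.p6, each 5′ to 3′ on the gene's strand). For Saa1 and Saa3 that start lies inside the gene span above, which reaches further upstream, so their windows overlap it. Capitals mark matches, on either strand, to TTGCNNAA, a C/EBP-type sequence, chosen after the sequences had been looked at.
Saa1: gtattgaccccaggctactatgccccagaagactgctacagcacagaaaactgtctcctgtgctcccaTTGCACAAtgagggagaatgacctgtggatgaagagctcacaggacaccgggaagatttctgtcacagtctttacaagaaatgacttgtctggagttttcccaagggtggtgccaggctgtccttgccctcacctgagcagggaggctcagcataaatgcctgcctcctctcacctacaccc
Saa2: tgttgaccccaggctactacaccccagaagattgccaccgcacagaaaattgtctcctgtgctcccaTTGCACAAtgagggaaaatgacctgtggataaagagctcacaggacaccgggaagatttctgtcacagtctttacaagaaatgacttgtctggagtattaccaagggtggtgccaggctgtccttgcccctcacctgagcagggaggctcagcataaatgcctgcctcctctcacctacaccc
Saa3: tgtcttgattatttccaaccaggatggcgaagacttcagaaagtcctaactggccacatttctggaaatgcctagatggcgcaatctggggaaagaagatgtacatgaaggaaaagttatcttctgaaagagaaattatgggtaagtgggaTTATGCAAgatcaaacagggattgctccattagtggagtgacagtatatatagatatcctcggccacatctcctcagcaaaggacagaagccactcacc
The windows lie at chr7:46742981-46743230 (minus strand) for Saa1, chr7:46751583-46751832 (plus strand) for Saa2 and chr7:46715677-46715926 (minus strand) for Saa3. The Saa1 and Saa2 windows were 94.8% identical over their alignment and hold the C/EBP-type match at almost the same place, ending 175 and 176 bases before the start. Matches to the C/EBP-type sequence were found in 3142 of 32851 promoter windows of this length (9.56%). In Saa3 the match ends 92 bases before the start. None was found in the Ceacam10 windows, and Cyp24a1 is not in the promoter table used. A match describes letters and shows no binding. The Saa1 and Saa2 transcripts of GENCODE M21 were 87.3% identical over their whole alignment and 92.4% over their last 300 bases, so the split of reads between these 2 genes is uncertain and their sum is the safer value. Clca3a1 and Clca3a2 transcripts were 88.1% identical overall and 54.3% over their last 300 bases.

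Whole libraries held 29166129 to 59957945 UMIs. The Saa1/Saa2-high cells had median totals of 17277, 21828, 14280, 14147 and 16794.5 UMIs in fresh 10x 1, fresh 10x 2, stored 10x, BD 1 and BD 2, the library order kept below, and the other epithelial cells 11994.5, 12594.5, 10860.5, 13645 and 10697.5. They were thus deeper than the rest in each library, by least in BD 1. At 2000 UMIs per cell their median number of genes was 934 to 970.5, against 949 to 990 in the others. Cells with over 20% of UMIs from mitochondrial genes made up 1.43% to 31.1% of them and 2.87% to 47.4% of the others. Libraries shared 1, 1 and 5 cell barcodes among the 10x pairs, 24 between BD 1 and BD 2 and 0 between platforms. The doublet caller marked 0 of the 550 cells, but it marked under 0.5% of cells in 4 of 5 libraries and so gave no usable call there.

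The score selected cells very rich in serum amyloid RNA. The values in this paragraph and the 2 that follow come from the genes that chose the cells, so they are a description without a test. Saa1 was detected in 100% of the Saa1/Saa2-high cells of every library and reached 57.4, 26.3, 35.6, 50.2 and 32.7 UMIs per 10000, against 1.98, 0.844, 1.46, 2.27 and 1.38 in the other epithelial cells. These pooled levels were far apart in each library, although 22.3% to 33.8% of the other epithelial cells also had a Saa1 UMI. Single cells overlapped in each library. In fresh 10x 2 the lowest selected cell had 2.55 UMIs per 10000 of Saa1 plus Saa2 and the highest other cell 90.9. Outside the gate Saa1 was found in 3.36% to 14.8% of cells with a Ptprc UMI (the pan-leukocyte gene; median 3904 to 9104 UMIs per cell) and in 7.14% to 21.4% of collagen-rich cells (median 11234 to 17993). The UMIs were unevenly spread: 1 Ptprc cell held 138 of 146 Saa1 UMIs in fresh 10x 2 and 1 held 118 of 193 in BD 2. The gated epithelial cells held 99.5%, 96.9%, 96.0%, 90.2% and 76.2% of each library's Saa1 UMIs, least in BD 2. There they held 12704 of 16662, the Ptprc cells 193 and the collagen-rich cells 88. Most Saa1 UMIs outside the gate of BD 2 thus lay in cells of neither class. Saa2 was detected in 97.99% to 100% of the selected cells and in 12.9% to 22.02% of the others. Saa1 and Saa2 together reached a median per cell of 76.9, 36.3, 54.0, 64.1 and 48.0 UMIs per 10000 and a maximum of 285 to 570, while the median of the other epithelial cells was 0 in each library. The 550 cells held 56.5% to 73.6% of all epithelial Saa1 UMIs and 64.2% to 80.9% of Saa2 UMIs.

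Cyp24a1 was detected in only a minority of these cells. It was detected in 18.6% (95% exact binomial interval 10.3 to 29.7), 12.5% (5.88 to 22.4), 28.2% (21.1 to 36.1), 35.4% (27.2 to 44.4) and 29.5% (21.9 to 38.1) of them, intervals that cover counting error only. The other epithelial cells had it in 10.9%, 4.42%, 7.73%, 12.0% and 9.63%, and cells with Ptprc in 0.422% to 1.90%. The selected cells were deeper, and with every cell thinned to 2000 UMIs Cyp24a1 was found in 1.43%, 1.43%, 10.1%, 9.45% and 12.9% of them against 2.13%, 0.700%, 1.84%, 3.21% and 3.399% of the others. At that depth the share in fresh 10x 1 was thus below that of the others, with 1.43% standing for 1 cell. Of all epithelial cells with a Cyp24a1 UMI, 8.23% to 16.2% were among the selected cells. The gene with the highest level was Saa1 or Saa2 in 86.1% to 97.1% of the selected cells and Cyp24a1 in 1 cell of 550. Across epithelial cells of a library, Pearson's r of the log values was 0.710 to 0.803 for Saa1 with Saa2, between which the split of reads is uncertain. For Saa1 with Cyp24a1 it was 0.031 to 0.135 (1396 to 2971 cells, which share a library and differ in depth).

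Clca3a2 was widespread and Ceacam10 intermediate. Clca3a2 was found in 90%, 93.1%, 89.3%, 97.6% and 89.4% of the selected cells and in 61.3% to 71.3% of the others, and the selected cells held only 10.4% to 11.7% of its epithelial UMIs. Ceacam10 was found in 42.9%, 55.6%, 53.7%, 69.3% and 54.5% against 20.2% to 31.2%. When cells were chosen by the other 4 genes and the fifth was read out, the level ratio to the remaining epithelial cells was 15.6 to 19.8 for Saa1, 16.4 to 25.5 for Saa2, 1.52 to 2.64 for Cyp24a1, 1.24 to 1.67 for Clca3a2 and 1.63 to 2.84 for Ceacam10. A choice by Saa1 and Saa2 alone at the same percentile shared 80.6% to 88.6% of its cells with the choice by 5 genes. The threshold lay at scores of 1.5999, 1.27, 1.39, 1.65 and 1.43. For fresh 10x 1 the nearest cells scored 1.61 inside and 1.59 outside, for fresh 10x 2 they scored 1.275 and 1.253, for stored 10x 1.390 and 1.385, and the same to 2 decimals in both BD Rhapsody libraries.

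**Figure D1:**
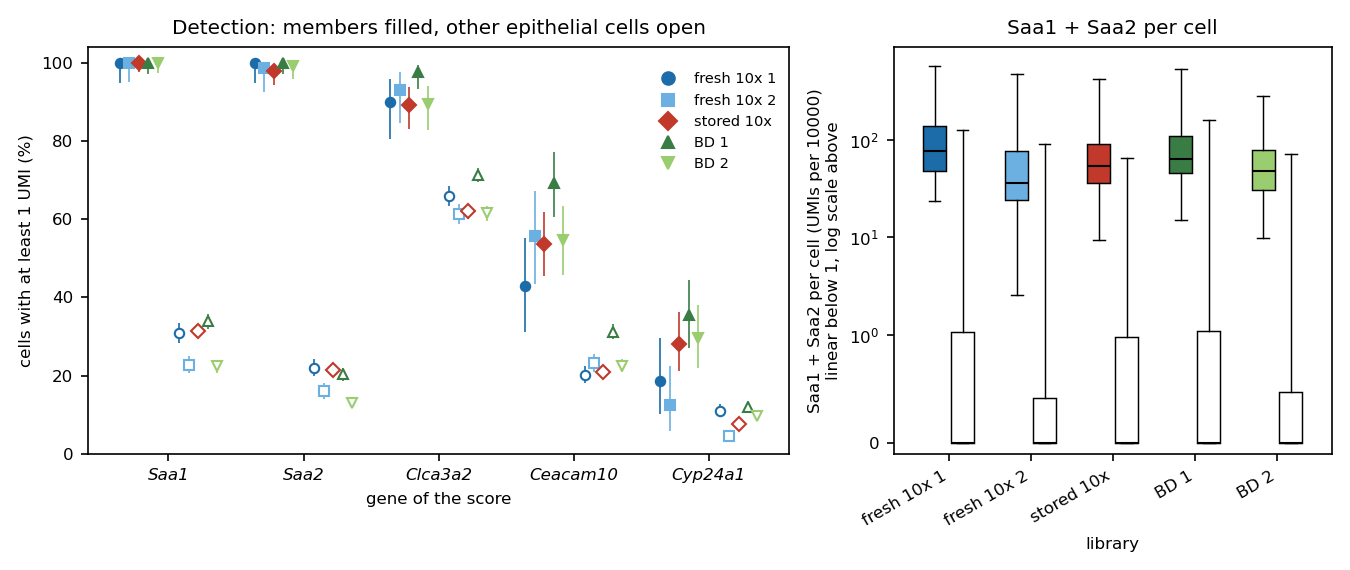
Left, percent of cells with at least 1 UMI of each score gene (points, with 95% exact binomial intervals) in the Saa1/Saa2-high cells (filled) and the other epithelial cells (open) of each library. Right, Saa1 plus Saa2 per cell in UMIs per 10000 (box, quartiles; line, median; whiskers, lowest and highest cell; linear below 1 and log above), filled for the selected cells: Saa1 reached 100% in every library while Cyp24a1 stayed between 12.5% and 35.4%.

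The other genes were compared between the Saa1/Saa2-high cells and the remaining epithelial cells, with UMIs summed per library and cell set and the library as a block (edgeR quasi-likelihood test, Benjamini-Hochberg adjustment, threshold 0.05). The 5 score genes and the 3 gate genes were not tested. Of 14410 genes, 1135 (7.88%) were called, 509 higher (3.53%) and 626 lower (4.34%), and 957 of them had the same sign in all 5 libraries. The median log2 change over all tested genes was -0.03. Cells and test come from the same libraries, so the counts describe what accompanied a high score there. The count fell to 871 against other epithelial cells matched on UMIs per cell, to 620 without cells carrying markers of other cell types, to 252 when every cell was thinned to 2000 UMIs, and to 22 without the library block. It was 824 without BD 2.

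Several milk protein genes rose, and among the genes named by size Wap, Csn2 and Csn1s2a came next to Saa3. Wap, the whey acidic protein, reached 27.7, 9.44, 8.77, 15.4 and 6.67 UMIs per 10000 in the Saa1/Saa2-high cells against 2.18, 1.95, 1.88, 1.57 and 1.38 in the rest, 7.07-fold higher (log2 2.82, SE 0.17, edgeR adjusted p = 5.74e-09). Its lowest value in the selected cells was above its highest in the others. Csn2, beta-casein, reached 90.5, 49.3, 55.4, 90.6 and 14.8 against 7.08, 8.28, 10.5, 7.74 and 6.31 (log2 2.78, SE 0.24, edgeR adjusted p = 5.97e-07). BD 2 had the smallest rise, and there Csn2 was detected in 18.9% of the selected cells, 19.2% of the others and 11.6% of cells with Ptprc. Csn1s2a and Csn1s1, 2 further caseins of the same chromosome 5 cluster, rose by 2.52 (SE 0.26) and 1.66 (SE 0.18) on the log2 scale, and Lalba, the regulatory subunit of lactose synthase, by 0.91 (SE 0.10). Csn3, kappa-casein, rose by 0.31, and Wfdc18 of the same list was not called (0.16, SE 0.07).

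These milk transcripts were unevenly spread over the cells. The 3 cells with most Csn2 UMIs held 61.5%, 54.9%, 34.7%, 29.0% and 61.4% of the Csn2 UMIs of the selected cells. The median cell carried 24.5, 29.2, 35.3, 103 and 62.8 UMIs per 10000 of Wap, Csn2, Csn1s2a, Csn1s1 and Lalba together, against 5.31, 11.9, 9.64, 32.2 and 22.3 in the others. Between 66.7% and 74.8% of the selected cells lay above the median of the others. By the mean log level of the same genes, 10.6% to 28.3% of the selected cells were in the top 5% of epithelial cells, a set that holds 5% of all. Without the 3 selected cells per library with most UMIs of these genes, Wap (log2 2.33), Csn2 (1.93), Csn1s2a (1.66) and Csn1s1 (0.93) were still called higher. Glycam1, a mucin-type milk glycoprotein, was higher at log2 2.65, but without those cells it was not called (log2 1.81), nor without BD 1 (2.15).

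The list of luminal progenitor and alveolar genes as a whole split in 2 directions: 12 of 19 tested genes rose and 4 fell. Its median log2 change was 0.62 against -0.03 for all genes, of which 3.53% were called higher and 4.34% lower. Besides the milk proteins, the risers were genes of milk fat and of alveolar differentiation: Elf5, the alveolar transcription factor, rose by 0.62, Plin2, which coats lipid droplets, by 0.85, Btn1a1, butyrophilin of the milk fat globule, by 0.87, and Xdh, its partner, by 0.63. Those that fell were Kit, the stem cell factor receptor of luminal progenitors, Aldh1a3, a progenitor aldehyde dehydrogenase, Krt7 and Ehf. Kit stood at 0.259, 0.378, 0.451, 0.456 and 0.439 UMIs per 10000 against 0.689, 0.817, 0.842, 0.966 and 0.899 (log2 -1.01, SE 0.08, edgeR adjusted p = 1.67e-07), and no library of the selected cells reached the lowest of the others. Aldh1a3 had a log2 change of -1.57 (SE 0.26), which was not called without cells carrying markers of other cell types (-0.77).

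**Figure D2:**
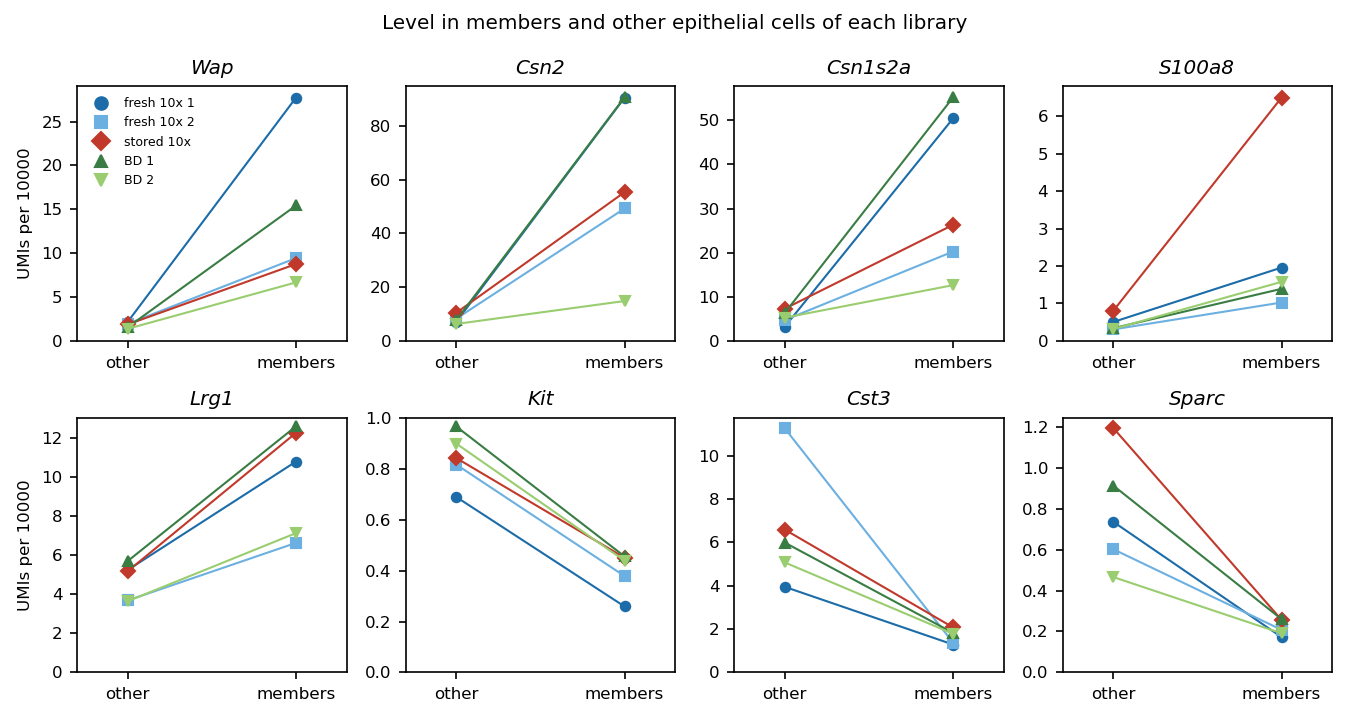
Level in UMIs per 10000 of 8 genes in the Saa1/Saa2-high cells and the other epithelial cells, a line per library. Wap, Csn2, Csn1s2a, S100a8 and Lrg1 were higher and Kit, Cst3 and Sparc lower in all 5 libraries; the stored 10x library was highest for S100a8, at 6.50.

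Acute phase and defence genes rose beyond the 2 that defined the cells. Of 21 tested genes of this list 10 were higher and 1 lower, with a median log2 change of 0.52. Over all genes 3.53% were called higher and 4.34% lower. Saa3 had the largest change (log2 3.48, SE 0.19, edgeR adjusted p = 1.07e-09), at 0.478, 0.0520, 0.577, 1.19 and 1.24 UMIs per 10000 against 0.0528, 0.0224, 0.0433, 0.142 and 0.0717. It came from few cells: Saa3 was detected in 10.0%, 2.78%, 12.1%, 9.45% and 8.33% of the selected cells and in 8.39% to 14.4% of collagen-rich cells outside the gate. Those collagen-rich cells had more of it in every library, at 3.47, 0.772, 9.16, 2.03 and 3.56 UMIs per 10000. In stored 10x, 1 of them held 1873 of their 3257 Saa3 UMIs. Lrg1, a secreted leucine-rich acute phase glycoprotein, was by contrast found in 86.1% to 94.0% of the selected cells and stood at 10.8, 6.63, 12.3, 12.6 and 7.13 UMIs per 10000 against 5.24, 3.68, 5.18, 5.70 and 3.64 (log2 1.12, SE 0.06). Lbp, which binds lipopolysaccharide, rose by 0.71 and its co-receptor Cd14 by 0.66. Lcn2, the siderophore-binding lipocalin, was already abundant in the other epithelial cells (56.8 to 125 UMIs per 10000) and stood at 86.2 to 160 in the selected cells, a log2 rise of 0.50 with SE 0.03. Chil1 (0.64) and the complement component C3 (0.89) also rose, while Wfdc2 was lower at -1.06, a call lost without stored 10x. Haptoglobin Hp (0.45, SE 0.46) and lactoferrin Ltf (0.30, SE 0.16) were not called.

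Among genes of NF-kB and STAT3 signalling 8 of 29 tested were higher and 2 lower, with a median of 0.11. Over all genes 3.53% were called higher and 4.34% lower. The receptors Il6ra, for interleukin-6, and Osmr, for oncostatin M, rose by 0.94 (SE 0.13) and 0.47 (SE 0.08). Csf3, the granulocyte colony-stimulating factor, stood at 0.179, 0.279, 0.831, 0.598 and 0.378 UMIs per 10000 against 0.0903, 0.0372, 0.406, 0.209 and 0.195 (log2 1.43, SE 0.17, edgeR adjusted p = 3.37e-05), higher in every library, though in fresh 10x 1 it came from 5 cells, 1 of which held 70.4% of its UMIs. Birc3 (0.82), Icam1 (0.78), Bcl3 (0.74) and the neutrophil-attracting chemokine Cxcl1 (0.52) rose as well. The transcription factor genes themselves moved little: Stat3 had 0.20 (SE 0.07), Cebpb 0.11 (SE 0.05) and Cebpd 0.08 (SE 0.07), none of them called. Nfkb1 had -0.29 (SE 0.09), a call that was lost on leaving out any 1 of the 5 libraries. Nfkbia, which encodes an inhibitor of NF-kB, had -0.06 (SE 0.05) and was not called. Tnfaip3 (0.47), an NF-kB inhibitor, was called higher, but not without BD 1 or without BD 2.

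Of the vitamin D and calcium list 3 of 13 tested genes were higher and 2 lower, with a median of 0.12, beside 3.53% higher and 4.34% lower over all genes. Cyp24a1 chose the cells and was not tested, and it was not detected in most of them. The list counts therefore do not show whether the list moved with Cyp24a1. Vdr, the vitamin D receptor, had a log2 change of 0.20 (SE 0.08, edgeR adjusted p = 0.188), and Cyp27b1, which makes the active hormone, had 1.2975 with an SE of 1.24. The genes called higher were Spp1, osteopontin (0.60), Rxra, the partner of the receptor (0.45), and Slc34a2, a phosphate transporter (0.38). Rxra and Slc34a2 lost their call without fresh 10x 1 or without BD 1, Slc34a2 also without stored 10x, and Slc34a2 changed sign at 2000 UMIs per cell (-0.04). Atp2b1, a plasma membrane calcium pump, and Igfbp3 were lower, with Igfbp3 at 0 in both BD Rhapsody libraries. Of the relatives of the other score genes, Clca2 (1.18, SE 0.20) and Clca3a1 (0.80, SE 0.15) rose (2 of 5 tested, 0 lower), and Ceacam1 had -0.13 (SE 0.08). Reads of Clca3a1 may in part be those of Clca3a2, which chose the cells, but this was not tested. Their transcripts were 88.1% identical overall and 54.3% over their last 300 bases, where Saa1 and Saa2 had 92.4%.

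Several other genes rose by at least 2-fold or close to it. S100a8, a subunit of the antimicrobial complex calprotectin, reached 1.96, 1.03, 6.50, 1.39 and 1.58 UMIs per 10000 against 0.506, 0.307, 0.802, 0.339 and 0.319 (log2 2.33, SE 0.13, edgeR adjusted p = 1.48e-09). It was detected in 47.2% to 65.8% of the selected cells, 18.2% to 32.8% of the others and 2.42% to 7.59% of cells with Ptprc. Of the other 3 neutrophil markers listed, S100a9 was at 0 in 2 libraries and at most at 0.0163, Csf3r was at 0 in 4 libraries and Retnlg in all 5. In the stored library 1 cell held 44.9% of the S100a8 UMIs. Lao1, an L-amino acid oxidase that is an antibacterial milk enzyme in mice, stood at 5.18, 1.80, 2.14, 1.93 and 0.895 against 0.988, 0.709, 0.728, 0.407 and 0.353 (log2 1.87, SE 0.13). It was detected in 40.9% to 59.7% of the selected cells, 18.4% to 26.9% of the others and at most 2.11% of cells with Ptprc. Duox1, a hydrogen peroxide-forming oxidase, rose by 1.18 (SE 0.13), and Prtn3, a serine protease best known from neutrophils, by 1.27 (SE 0.09). Thrsp, a promoter of fatty acid synthesis in mammary epithelium, rose by 1.16 (SE 0.05) and Abhd5, the co-activator of a lipid droplet lipase, by 1.18 (SE 0.06). Srgn (1.14), Grrp1 (1.01) and Dmkn (0.98) were the other higher genes named by size. Grrp1 was not called at 2000 UMIs per cell, and Dmkn was not called by DESeq2 and had log2 ratios of 0.07 in fresh 10x 2 and 0.29 in stored 10x. Lpo, lactoperoxidase, was higher at 1.62 (SE 0.38) from 24 cells in all and was not called without stored 10x or without BD 1.

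**Figure D3:**
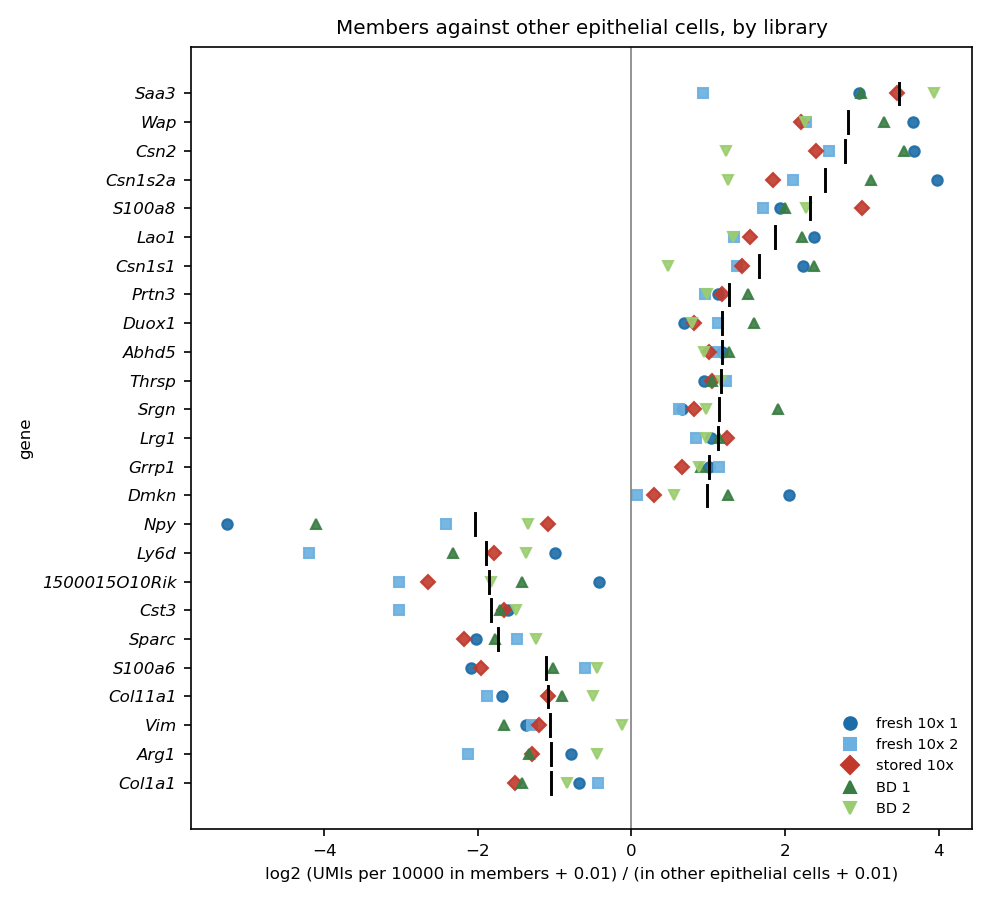
Log2 ratio of the level in Saa1/Saa2-high cells to that in the other epithelial cells, each with 0.01 UMIs per 10000 added, for the 25 genes named by size; a symbol per library and a bar for the edgeR estimate. All 15 upper genes lie above 0 and all 10 lower genes below 0 in the 5 libraries, as the rule that named them required.

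Genes of other tumour cell programmes were lower in the Saa1/Saa2-high cells. Of 11 listed genes of other tumour epithelial programmes 7 were lower and 0 higher, beside 4.34% lower and 3.53% higher over all genes. Npy, neuropeptide Y, stood at 0, 0.109, 0.294, 0.0244 and 0.138 UMIs per 10000 against 0.376, 0.623, 0.637, 0.584 and 0.368 (log2 -2.03, SE 0.28, edgeR adjusted p = 0.000110). Ly6d fell by 1.89 (SE 0.24), Arg1, arginase, by 1.05 (SE 0.15), Tspan8 by 0.99 (SE 0.14) and Foxi1 by 0.47 (SE 0.07) on the log2 scale. Of the basal and myoepithelial list 4 of 9 tested genes were lower and 0 higher. Krt5 was detected in 1, 1, 0, 1 and 0 of the selected cells, and the change of -5.62 (SE 0.37) is therefore poorly determined, being -1.22 and not called at the 90th percentile. Of the hormone-sensing list 3 of 10 were lower: Foxa1, Areg and Cited1, each at most at 0.0203 UMIs per 10000 in the selected cells. Esr1, the oestrogen receptor, was not called (-0.06, SE 0.27).

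Cst3, cystatin C, stood at 1.29, 1.38, 2.08, 1.83 and 1.79 UMIs per 10000 against 3.95, 11.3, 6.595, 5.996 and 5.08 (log2 -1.82, SE 0.15, edgeR adjusted p = 2.43e-07). Sparc, a matricellular protein, stood at 0.173, 0.208, 0.257, 0.260 and 0.191 against 0.736, 0.602, 1.19, 0.913 and 0.466 (log2 -1.74, SE 0.11). The selected cells lay below the others in every library for both genes. 1500015O10Rik (-1.86), S100a6 (-1.12), Col11a1 (-1.09), Vim (-1.07) and Col1a1 (-1.05) completed the lower group named by size. Among markers of other cell types, the fibroblast, macrophage and mural sums were lower in each library. Other types did not all move that way. The lymphocyte sum was higher in BD 1 (0.0773 against 0.0572) and the endothelial sum in stored 10x (0.0801 against 0.0738). The erythroid sum was higher in fresh 10x 1 and BD 1, Ptprc in fresh 10x 1, and the neutrophil sum, which holds S100a8, in each library. The summed fibroblast markers were at 0.501 to 1.33 UMIs per 10000 in the selected cells and 0.713 to 3.84 in the others, with all 6 detected in 4 libraries and Pdgfra at 0 in fresh 10x 2. The macrophage markers were at 0.0332 to 0.461 against 0.170 to 0.939, lower in each library, with Adgre1 at 0 in 4 of 5. Without cells carrying at least 3 UMIs of other cell types' markers, Col1a1 had 0.07 and was not called. Col1a1 is itself among these markers, so the restriction limits it directly. At least 3 such UMIs were found in 25% to 56.7% of the selected cells and 25.7% to 56.2% of the others.

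MHC class II genes were lower in the Saa1/Saa2-high cells (3 of 6 tested, median -1.05), namely H2-Aa, H2-Ab1 and Cd74, and the same cell restriction left them uncalled at -0.27, -0.09 and -0.15. Of the 10 dissociation genes 8 were lower and 0 higher, by little: Fos by 0.33 and Hspa1a by 0.65 on the log2 scale. Fosb, Ier2 and Dusp1 lost their call against cells of matched UMI totals. The RNA quality list had 4 of 12 genes lower, with Malat1 at -0.28 and 3 mitochondrial genes between -0.12 and -0.10, and none of these 4 was called against cells of matched UMI totals. No gene of the 13 for proliferation was called (Mki67 0.09, SE 0.13; Top2a -0.44, SE 0.16). The interferon list had 1 of 12 lower and 0 higher, beside 4.34% lower and 3.53% higher over all genes. Of the squamous list 2 of 8 were higher (S100a8 and Sfn) and 1 lower (S100a9), of the mucosal list 3 of 11 were higher (Muc1, Muc4, Cldn4) and 3 lower (Aqp5, Slc12a2, Ano1), and of the hypoxia list 2 of 14 were higher (Ndrg1, Ldha) and 2 lower (Adm, Egln3).

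**Figure D4:**
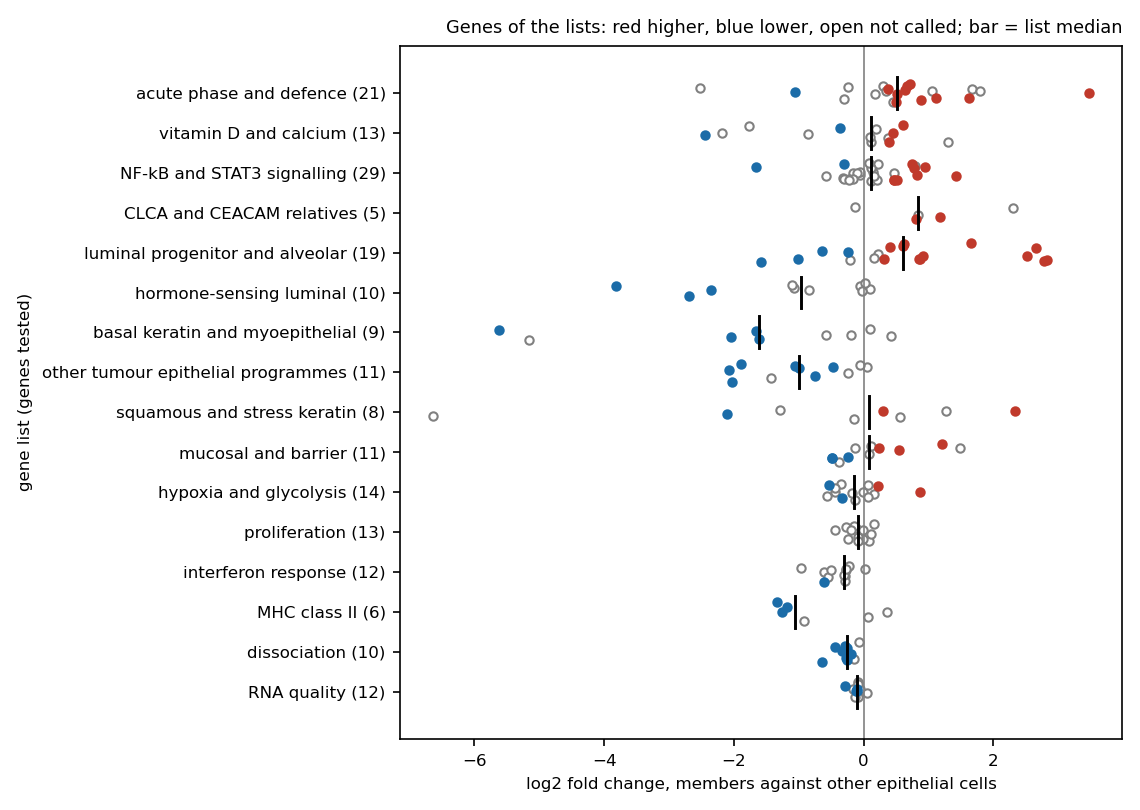
Log2 change between Saa1/Saa2-high and other epithelial cells for the tested genes of the 16 lists (number tested in brackets); red, called higher, blue, called lower, open, not called, bar, median of the list. The alveolar list spreads widely, from Aldh1a3 at -1.57 to Wap at 2.82, while the 13 proliferation genes lie between -0.44 and 0.16.

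Whether the difference between the Saa1/Saa2-high cells and their neighbours itself depended on the platform was tested with the term for BD Rhapsody minus fresh 10x. Of 14410 genes 4 were called (0.0278%), 3 higher (0.0208%) and 1 lower (0.00694%). Cxcl2, a neutrophil-attracting chemokine, stood at 2.65 and 2.66 UMIs per 10000 in the selected cells of BD 1 and BD 2 against 1.62 and 1.37 in the rest, but at 1.09 and 0.170 against 1.19 and 0.492 in the fresh 10x libraries (difference of log2 changes 1.42, SE 0.23, edgeR adjusted p = 0.00908). Mt2, a metallothionein, likewise differed by 0.73 (SE 0.13) and the collagen Col11a1 by 1.09 (SE 0.17), while Ccnd1, cyclin D1, differed by -1.01 (SE 0.16). Without BD 2 these became 1.36 for Cxcl2, 0.93 for Col11a1 and -1.13 for Ccnd1, all called, and 0.64 for Mt2, not called (edgeR adjusted p = 0.0964). With 2 residual degrees of freedom the count was not stable: 820 genes had an unadjusted p under 0.05, DESeq2 called 0, and leaving out fresh 10x 1, fresh 10x 2, stored 10x, BD 1 or BD 2 gave 142, 56, 0, 36 and 51. On simulated data the platform test recovered 27% of 2-fold and 84% of 4-fold differences, so genes not called are not shown to be alike. Saa3, Wap, the caseins, S100a8, Lao1 and Lrg1 were not among the genes called for the platform.

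The storage term, stored 10x minus fresh 10x, called 14 of 14410 genes (0.0972%), 12 higher (0.0833%) and 2 lower (0.0139%), from 1 stored library whose spread was taken from the other groups. Cd74, the MHC class II invariant chain, was at 0.394 UMIs per 10000 in the selected cells of the stored library and 0.390 in the rest, but at 0.0797 and 0.0899 against 0.147 and 0.647 in the fresh libraries (2.31, SE 0.38, edgeR adjusted p = 0.00391). In the stored library 1 of the 149 cells held 45.8% of these Cd74 UMIs and 54.2% of the Apoe UMIs. Apoe (1.58, SE 0.20), Cd74 and the macrophage marker sum, which was 0.461 in the stored and 0.0332 and 0.0662 in the fresh selected cells, moved together, and without cells carrying other markers Cd74 had -1.13 and Apoe -0.30. Glycam1 had the opposite pattern, 15.01 and 3.17 UMIs per 10000 in the fresh and 0.477 in the stored selected cells against 0.342, 0.825 and 1.24 in the rest (-5.09, SE 0.83), with 1 cell holding 80.5% of the UMIs of fresh 10x 1. Scgb1c1 (2.00), Bex4 (1.92), Cxcl2 (1.39) and Wfdc17 (-2.09) were the other genes named by size. DESeq2 called 3 genes, 508 had an unadjusted p under 0.05, and leaving out fresh 10x 1, fresh 10x 2, BD 1 or BD 2 gave 96, 48, 39 and 35.

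**Figure D5:**
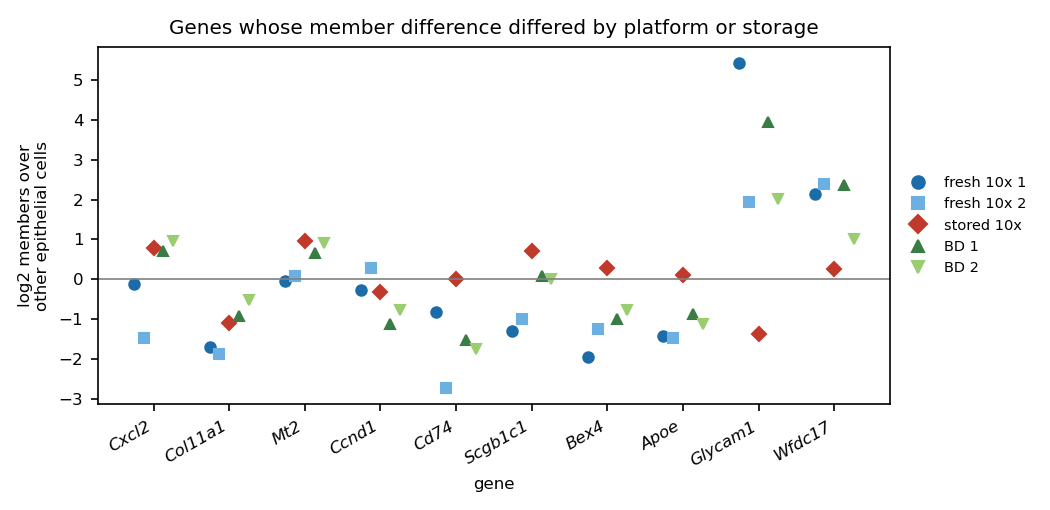
Log2 ratio of Saa1/Saa2-high to other epithelial cells, each level with 0.01 UMIs per 10000 added, in each library for the 10 genes named by the platform and storage terms. For Cxcl2 and Mt2 both BD Rhapsody libraries and the stored library lie above both fresh 10x libraries, and for Glycam1 the stored library lies below 0.

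The Saa1/Saa2-high cells were last compared with each other between groups. The 2 comparisons share the fresh 10x libraries. Between stored and fresh 10x 75 of 10847 genes were called (0.691%), 65 higher (0.599%) and 10 lower (0.0922%) in the stored library. Mt2 stood at 4.95 UMIs per 10000 against 0.744 and 1.00 (log2 2.52, SE 0.24, edgeR adjusted p = 2.34e-06), and Rps28, a ribosomal protein, at 37.2 against 6.96 and 8.01. The other epithelial cells of the same libraries showed the latter just as much, at 38.02 against 6.43 and 8.35. Of the NF-kB and STAT3 list 6 of 26 tested genes were higher, among them Cxcl1 (1.35), Csf3 (1.85), Tnf (1.57) and Cxcl2 (2.22, SE 0.47), and 0 lower. The other epithelial cells of the stored library were also above both fresh libraries for these 4 genes, with Csf3 at 0.406 against 0.0903 and 0.0372, Cxcl1 at 3.26 against 2.07 and 0.852, Tnf at 0.4002 against 0.247 and 0.227 and Cxcl2 at 1.66 against 1.19 and 0.492. S100a8 (2.13) and Cd74 (2.22) were also higher, with 1 cell each of the stored library holding 44.9% and 45.8% of these UMIs. Lower were Glycam1, Utp14b, C2cd4b, Klk10 and AY036118. Leaving out fresh 10x 1 gave 0 calls, leaving out BD 1 or BD 2, which enter the spread, gave 157 and 159, DESeq2 called 31, and 996 genes had an unadjusted p under 0.05.

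Between BD Rhapsody and fresh 10x the Saa1/Saa2-high cells differed in 3755 of 10847 genes (34.6%), 1804 higher (16.6%) and 1951 lower (18%). Among the genes named by size, the largest fall was shared with the other epithelial cells: Rps10, a ribosomal protein, was at 41.5 and 41.3 UMIs per 10000 in the selected cells of the fresh 10x libraries and 1.09 and 0.699 in those of BD Rhapsody, and at 42.3 and 42.3 against 1.06 and 0.756 in the rest. Gm11808, mt-Nd3, mt-Atp8 and mt-Nd4l were higher and AY036118, Fdps, Rps2 and G0s2 lower on BD Rhapsody. The rest shifted the same way for each of these genes, with Gm11808 at 11.9 and 12.8 against 0.424 and 0.429. Mt2 stood at 17.4 and 25.7 against 0.744 and 1.00 (log2 4.48, SE 0.23, and 4.20 without BD 2), and in the other epithelial cells at 11.1 and 13.5 against 0.760 and 0.942. Within the fixed lists, Lalba was higher (log2 2.56, SE 0.21), at 144 in BD 1 and 108 in BD 2 against 22.3 and 16.2, and Tnfaip3 (2.94, SE 0.28), at 1.14 and 1.0004 against 0.186 and 0.0804. Spp1 was lower (-1.66, SE 0.23), at 59.3 and 32.4 against 149 and 113. For these 3 genes each BD Rhapsody library lay beyond both fresh 10x libraries, and 6 of 11 interferon genes were lower and 0 higher. The other epithelial cells shifted the same way for Spp1, at 27.0 and 20.1 against 123 and 76.5. They did so for Tnfaip3 too, at 0.706 and 0.614 against 0.170 and 0.131. For Lalba, the platform term of the difference from those cells was not called, as for all 19 tested genes of its list. Leaving out fresh 10x 1 gave 674 calls and leaving out BD 2 gave 3115.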

How the data were processed

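The authors deposited UMI counts per gene and cell as matrices. The values are integers per the file headers, and no normalisation of the deposited counts is recorded. The submitters' processing notes name Cell Ranger 3.0.1 and mm10, with no role, and the counting of the BD Rhapsody libraries is not given in the sources used here. Spellings of the same gene name were merged, which left 41028 of 42562 names. One matrix per sample was used. A pooled fresh 10x matrix and 2 further matrices of BD 1 were not used.

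Counts were summed per library over the selected cells and over the other epithelial cells and tested with edgeR 4.0.16 in R 4.3.3 (filterByExpr, TMM, quasi-likelihood). DESeq2 1.42.0 was an alternative. The main tests of the selected cells against the rest carried the library as a block, since both sums come from the same library. Doublet calls (scrublet, scanpy 1.11.5, expected rate 0.06) removed no cell in the main tests. On simulated counts the main test recovered 98% of 2-fold and 100% of 4-fold changes, and the storage term 13% and 71%. The test of stored against fresh selected cells recovered 52% and 98%, and that of BD Rhapsody 74% and 100%. The simulation gave every gene the same spread and changed only genes with many UMIs. Its rates can thus be too high for genes that rest on few cells.

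The members and gene lists were chosen with earlier results of these data known. Genes named by size were the 15 highest and 10 lowest called genes with the same sign in 5 libraries and at least 50 CPM in the higher cell set, computed here from the deposited counts. For the other tests they were the 5 highest and 5 lowest called genes with at least 10 UMIs in every sum. Other genes come from the 16 lists. Precision is set by 5 libraries with 1505334 to 2995907 UMIs in the selected cells. One promoter sequence is not reported here.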

Additional observations from a re-analysis of the deposited data

Results flagged for a closer look

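The difference between the Saa1/Saa2-high cells and the other epithelial cells of the same library differed between BD Rhapsody and fresh 10x for 4 genes, by the edgeR quasi-likelihood test of that difference. These were Cxcl2 (1.42 on the log2 scale), Col11a1 (1.09), Mt2 (0.73, not called without BD 2) and Ccnd1 (-1.01). Without cells carrying markers of other cell types Col11a1 had -0.10. Between stored and fresh 10x the difference differed for Cd74 (2.31), Scgb1c1 (2.00), Bex4 (1.92), Apoe (1.58), Cxcl2 (1.39), Glycam1 (-5.09) and Wfdc17 (-2.09), among the 14 genes called. In fresh 10x 1 a single cell held 80.5% of the Glycam1 UMIs of the selected cells, and in the stored library single cells held 45.8% of the Cd74 and 54.2% of the Apoe UMIs.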

How the results depend on the processing

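For the Saa1/Saa2-high cells against the rest, the 1135 calls became 252 at 2000 UMIs per cell, 620 without doublets and cells with other markers, 2890 against epithelial cells at score 0, 22 without the replicate block, and 762 to 1054 leaving out 1 library. Reversed were Slc34a2 (-0.0409 at 2000 UMIs and -0.00992 without other-marker cells) and, in the latter setting, Col1a1 (0.0671), which is itself among those markers. Also reversed without other-marker cells were Col11a1 for the platform term (-0.0958), and Cd74 (-1.13) and Apoe (-0.296) for the storage term. The cause was not tested.

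The platform term gave 4 calls, and 0 with DESeq2 or a member effect per platform, 62 without the filter, 14 and 45 at the 90th and 98th percentile, 7 thinned, 32 without cells above 20% mitochondrial UMIs, 39 without other-marker cells and 0 to 142 leaving out 1 library. In the same settings the storage term gave 3 with DESeq2, 44, 29 at the 98th percentile, 6, 24, 37 and 35 to 96 (14 in the main test). Stored against fresh gave 31 with DESeq2, 0 without the filter, 118 and 13 at the 2 percentiles, 41 by the mitochondrial limit and 0 to 159 leaving out 1 library (75). BD Rhapsody against fresh 10x gave 1937 with DESeq2, 2064 without the filter, 1909 at the 98th percentile, 1034 thinned, 2383 without other-marker cells and 674 to 3680 leaving out 1 library (3755). With the replicate number as a block, which pairs no shared source, it gave 4437.

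The median share of selected cells with Saa1 was 99.3% at the 90th percentile and 97.7% thinned (100%), with Saa2 93.7% and 96.9% (99.2%), and thinned, 10% with Cyp24a1, 72.3% with Clca3a2 and 20% with Ceacam10. At full depth the median shares were 28.2% for Cyp24a1, 90% for Clca3a2 and 54.5% for Ceacam10. The thinned cells were chosen anew, so depth and cell set changed together.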
